A study of Mus musculus with 14 samples.

Results

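The neurons described here are the core pyramidal cells of hippocampal area CA1, taken as the cells that the deposited cell table places both in the class CA1_ExN and in Leiden cluster 1. They numbered 2973 of 13602 annotated cells, with 104 to 335 cells in each of 14 mouse samples. MERFISH, in which the RNA of a gene panel is counted molecule by molecule under the microscope, was applied to sagittal sections of fresh-frozen hemibrains. The groups were Ctl-Veh (unirradiated mice given vehicle, n = 5), Ctl-Rz (unirradiated, RZ, n = 3), Ir-Veh (irradiated, vehicle, n = 4) and Ir-Rz (irradiated, RZ, n = 2), and RZ is kept as the labels write it. The sources used here give no strain, age, dose or time. Samples share numbers in their titles, which equal the assay number in the cell table. A number is called a run here, and there were 7 runs of 2 samples each. The labels do not say that samples came from separate animals, and every p-value therefore speaks of these samples and of a spread that may be technical.

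CA1 pyramidal neurons are the main output cells of the hippocampus. They receive input from CA3 and from the entorhinal cortex, and their bodies form a thin curved sheet. Cells near the stratum oriens (here the outer side) and cells near the stratum radiatum (here the inner side, facing the dentate gyrus) are known to differ in connections, and so are cells near CA3 and cells near the subiculum. Immediate early genes such as Arc, Egr1 and Fos are transcribed within minutes of strong neuronal activity.

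The name of the cluster was checked against 4 markers of CA1, which are Fibcd1, Adgrl2, Gm2115 and Htr1a, the last of which encodes the serotonin 1A receptor. All 4 were detected in 40.9% of the cells and 3 of them in a further 45.8%, while 4 cells had none. Fibcd1 stood at 7.01 ± 1.58 counts per cell (SD, n = 14 samples) in core CA1, against 0.366 in core dentate granule cells (DG_ExN, Leiden 0, 6000 cells) and 0.0632 in core CA3 cells (CA3_ExN, Leiden 8, 1129 cells). Adgrl2, an adhesion receptor, stood at 3.94 ± 0.68 against 0.0903 and 0.140. Gm2115 stood at 6.32 ± 1.14 against 0.0662 and 0.907. Htr1a stood at 1.05 ± 0.44 against 0.164 and 0.0986. All of these genes could have shaped the cluster, so their levels are a description and were not tested.

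Beyond the markers, core CA1 was set against the pool of all other annotated cells on counts scaled to 1000000 per sample (CPM). The pool held 6000 core dentate cells and the other CA1_ExN cells as well, so its ratios do not tell core CA1 from CA3. The log2 ratio was 2.54 for Kcnh7, which encodes a potassium channel. It was 2.36 for Egr1 and 2.27 for Arc, and 2.10 for Col11a1, a fibrillar collagen chain. Dkk3, a secreted glycoprotein of the Dickkopf family, stood at 12.2 counts per cell in core CA1 and 11.1 in core CA3, against 0.339 in core dentate cells. At the other end, the ratio was -5.24 for Grm2, a metabotropic glutamate receptor of granule cells, -4.32 for the cadherin Cdh9, -3.40 for Gad1, which makes GABA, and -2.66 for Kcnc1, a fast potassium channel. In counts per cell, App stood at 43.5, Hpca at 29.6, Gria1 at 29.2 and Grin1 at 23.7. These are the amyloid precursor, the calcium sensor hippocalcin, an AMPA receptor subunit and the obligatory NMDA receptor subunit. The sources used here give no probe numbers per gene, so these levels give no order of the genes.

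**Figure D1:**
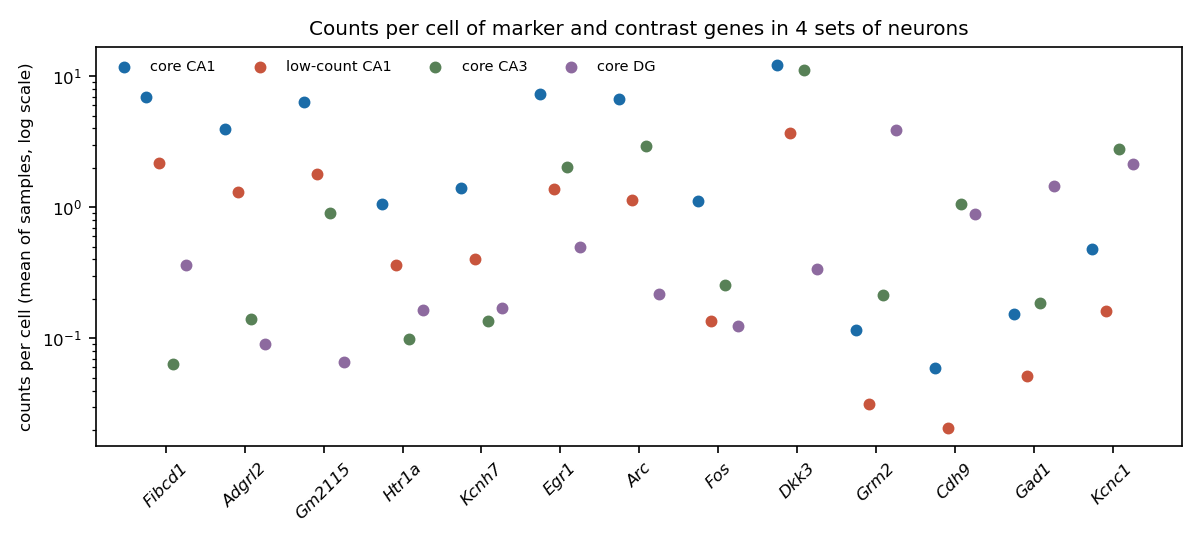
Mean counts per cell over samples, on a log axis, for 13 genes in core CA1, low-count CA1 (CA1_ExN, Leiden 3), core CA3 and core dentate (DG) neurons. The 4 markers at the left were highest in core CA1, and Grm2, Cdh9 and Kcnc1 at the right were higher in the dentate set than in core CA1. Values are not scaled to depth. Median counts per cell were 396 in core CA1, 104 in low-count CA1, 377 in core CA3 and 247 in core dentate cells. The lower values of low-count CA1 therefore include its lower depth.

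Immediate early genes varied widely from cell to cell. Arc, whose protein acts at the synapse, was detected in 90.8% of core CA1 cells and in 10.8% of core dentate cells, at median depths of 396 and 247 counts per cell. Its 10th, 50th and 90th percentiles were 1, 4 and 17 counts per core CA1 cell. Egr1, a transcription factor, was detected in 91.4% of core CA1 cells and 28.1% of core dentate cells, and Fos in 35.5% and 7.68%. Within samples, Arc and Egr1 counts correlated across cells with a median Spearman rho of 0.707 (range 0.539 to 0.770 over 14 samples), and Arc and Fos with 0.537. Arc correlated with Fibcd1 at 0.222, and both genes share the depth of the cell. These values are descriptions, and cells are not independent samples.

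Promoters were searched for the motif TGACG, the core of the cyclic AMP response element, in immediate early genes whose transcripts differed across the depth of the layer (next paragraph). The RefSeq table (build GRCm38.p6) held windows for Fos, Fosb, Fosl2 and Egr4, while those of Arc and Egr1 were not searched. The 3 windows that carry the motif are shown. Each window runs from 250 bases before to 50 after the gene's start, and capitals mark TGACG or its reverse complement CGTCA. Fos lies at chr12:85473640-85473939 (+ strand), Fosb at chr7:19309996-19310295 (- strand) and Egr4 at chr6:85513540-85513839 (- strand).
Fos: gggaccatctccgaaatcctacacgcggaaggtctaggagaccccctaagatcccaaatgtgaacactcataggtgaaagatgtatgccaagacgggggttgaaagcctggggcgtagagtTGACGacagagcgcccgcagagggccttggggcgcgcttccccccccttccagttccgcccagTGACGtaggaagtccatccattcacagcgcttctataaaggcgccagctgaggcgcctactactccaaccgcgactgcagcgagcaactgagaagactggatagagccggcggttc
Fosb: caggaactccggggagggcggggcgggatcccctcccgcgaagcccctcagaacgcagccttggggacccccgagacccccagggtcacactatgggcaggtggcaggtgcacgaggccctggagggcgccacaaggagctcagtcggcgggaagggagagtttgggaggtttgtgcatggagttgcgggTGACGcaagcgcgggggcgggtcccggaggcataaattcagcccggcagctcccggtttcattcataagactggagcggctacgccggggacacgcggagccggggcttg
Egr4: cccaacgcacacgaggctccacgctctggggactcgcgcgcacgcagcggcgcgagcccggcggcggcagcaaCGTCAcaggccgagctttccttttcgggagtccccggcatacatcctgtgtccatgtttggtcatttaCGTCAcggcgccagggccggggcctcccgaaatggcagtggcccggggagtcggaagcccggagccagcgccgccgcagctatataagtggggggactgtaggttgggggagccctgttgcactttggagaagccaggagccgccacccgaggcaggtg
The Fos and Egr4 windows hold 2 matches each and the Fosb window 1, while the Fosl2 window holds 0. Of all 32851 promoter windows, 20.8% hold the motif on either strand. A match is a run of letters and not a measured binding site.

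Across the depth of the layer, the outer side held more immediate early transcripts, and the inner side held more Crtac1, Htr1a and Car12. Each sample's cells were ranked by signed distance from a curve fitted along the layer, counted as positive toward the dentate gyrus. They were split at the middle rank into an outer set (1482 cells) and an inner set (1491 cells), so the near-equal sizes follow from the method. The sums were compared within samples with edgeR's quasi-likelihood test. Of 133 genes tested, 60 passed an adjusted p of 0.05 (45.1%), with 25 higher on the inner side (18.8%) and 35 on the outer side (26.3%). A check on simulated data showed that, when many genes differ, this test also makes false calls on small differences. A stricter rule was therefore added after that check, which asked for a log2 difference of at least 0.2 and a call under all 3 scalings tried. It kept 39 genes (29.3%), with 17 higher on the inner side (12.8%) and 22 on the outer side (16.5%), and only these are called higher or lower below. Fibcd1, Adgrl2, Hpca and Bdnf were among the 21 called genes that it dropped. Median counts per cell were 410 on the outer and 407 on the inner side, as means over samples.

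Of the listed immediate early genes, 8 were measured and 7 tested, and 6 were higher on the outer side. The list median was -0.67 (log2 inner over outer), against a median of -0.03 over all genes tested. Of all genes tested, 26.3% were called higher on the outer side, and 16.5% under the stricter rule. The list and the position comparisons were chosen with earlier results of these data known. The counts and p-values are therefore not those of a planned test. Egr1 ran from 14774 to 27488 CPM on the outer side (median 21271) and from 9626 to 19749 on the inner side (median 13970). Egr1 was higher on the outer side in 14 of 14 samples, although the ranges of the sides overlapped (log2 -0.69 ± 0.03 SE, edgeR adjusted p = 1.63e-23). Arc ran from 11716 to 28232 CPM on the outer side and from 8344 to 19570 on the inner side, and was again higher on the outer side in 14 of 14 samples (log2 -0.61 ± 0.04, edgeR adjusted p = 7.24e-19). Fos, partner of the Jun proteins in the AP-1 factor, differed by -0.87 ± 0.08 and was higher on the outer side in 14 of 14 samples. Fosl2 (-0.84 ± 0.11), Egr4 (-0.67 ± 0.09) and Fosb (-0.48 ± 0.14) were higher on the outer side in 11, 13 and 9 of 14 samples. The seventh, Egr2, gave -0.05 ± 0.10 and did not pass (edgeR adjusted p = 0.713).

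Col11a1 and Crtac1 had the largest log2 differences on the outer and on the inner side among the 39 genes. Col11a1 ran from 573 to 8314 CPM on the outer side (median 4010) and from 356 to 2654 on the inner side (median 1028), and was higher on the outer side in every one of the 14 samples (log2 -1.99 ± 0.07, edgeR adjusted p = 7.97e-28). Epha10, an ephrin receptor, was higher on the outer side by -1.23 ± 0.06, the transcription factors Fezf2 and Bcl6 by -0.65 ± 0.08 and -0.48 ± 0.05, and the marker Gm2115 by -0.40 ± 0.03. On the inner side, Crtac1, a secreted matrix protein, ran from 1399 to 7381 CPM against 281 to 2715 on the outer side (log2 1.57 ± 0.07, edgeR adjusted p = 3.38e-24). Htr1a ran from 1527 to 5157 CPM on the inner side against 634 to 2278 on the outer side, and was higher on the inner side in 14 of 14 samples (log2 1.26 ± 0.08). Car12, a carbonic anhydrase, gave 1.26 ± 0.09, Cpne5, a copine, 1.08 ± 0.10, the kinase Camk2g 0.83 ± 0.07 and the stress hormone receptor Crhr1 0.61 ± 0.07. Calb1, a known marker of cells on the inner side, stood at 0.0685 counts per core CA1 cell, which was too low to test.

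Some transcripts of astrocytes differed with depth as well. Of 5 measured astrocyte markers, 3 were tested, with a list median of -0.42. All 3 passed the first test toward the outer side and 2 met the stricter rule, beside 26.3% and 16.5% of all genes tested. Gfap, an astrocyte filament protein, gave -0.52 ± 0.13 and Gja1, a gap junction protein, -0.42 ± 0.13, at 0.228 and 0.310 counts per cell on the outer side. Apoe, a lipid carrier made mainly by astrocytes, gave -0.59 ± 0.09. The third of these markers, Aldh1l1, did not meet the stricter rule, and Gja1 lost its call without sample Ir-Veh 9 (-0.28, edgeR adjusted p = 0.0641). The part of astrocyte transcripts in the depth differences was not tested.

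**Figure D2:**
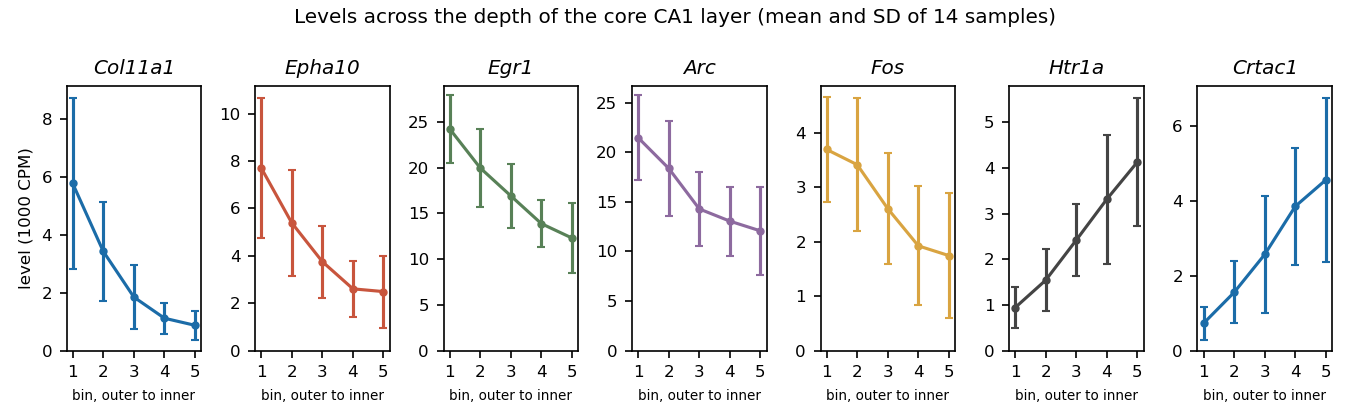
Levels in units of 1000 CPM (y axis) in 5 bins of equal cell number from the outer to the inner side (x axis), as mean and SD of 14 samples. Col11a1, Epha10, Egr1, Arc and Fos fell from bin to bin in the mean, and Htr1a and Crtac1 rose.

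Along the length of the layer, Adgrl2 and Fezf2 were higher at the end far from CA3, and Camk2g and Fibcd1 at the CA3 end. The third of each sample's cells nearest CA3 (986 cells in all) was compared with the third at the far end (996 cells). Of 113 genes tested, 33 passed (29.2%), with 17 higher at the far end (15%) and 16 at the CA3 end (14.2%). The stricter rule kept 25 (22.1%), with 15 at the far end (13.3%) and 10 at the CA3 end (8.85%). Median counts per cell were 431 at the far end and 392 at the CA3 end.

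Adgrl2 ran from 9816 to 17181 CPM at the far end and from 2260 to 7191 at the CA3 end, so the ends did not overlap (log2 1.92 ± 0.10, edgeR adjusted p = 1.75e-12). Fezf2 ran from 1384 to 4225 CPM at the far end and from 200 to 1033 at the CA3 end, again without overlap (log2 2.01 ± 0.12, edgeR adjusted p = 4.93e-12). Both were higher at the far end in 14 of 14 samples. Gria3, an AMPA receptor subunit, gave 0.34 ± 0.08, and Gm2115 0.25 ± 0.05. Bdnf, a neurotrophin, gave 0.29 ± 0.10 and was higher at the far end in 13 of 14 samples.

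At the CA3 end, Camk2g ran from 1764 to 5242 CPM against 666 to 2629 at the far end, and was higher at the CA3 end in 14 of 14 samples (log2 -1.27 ± 0.09, edgeR adjusted p = 2.33e-10). Fibcd1 ran from 11427 to 27966 CPM against 9040 to 18769 (log2 -0.59 ± 0.06), the opposite direction to Adgrl2. Enpp2, which makes lysophosphatidic acid, gave -1.07 ± 0.13, the integrin Itga7 -1.02 ± 0.18, Crtac1 -0.91 ± 0.12 and Crhr1 -0.54 ± 0.09. Of the immediate early genes tested along the length, 0 of 7 passed, beside 29.2% of all genes tested, although Fosb and Egr2 passed under some alternatives. Values of the 7 ran from -0.70 to -0.00058, so 0 of 7 were above 0. The list median was -0.20, against -0.05 over all genes tested. Arc gave -0.05 ± 0.07 (edgeR adjusted p = 0.670) and Egr1 -0.18 ± 0.08 (edgeR adjusted p = 0.107). Htr1a, which differed with depth, gave -0.15 ± 0.09 along the length and did not pass.

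**Figure D3:**
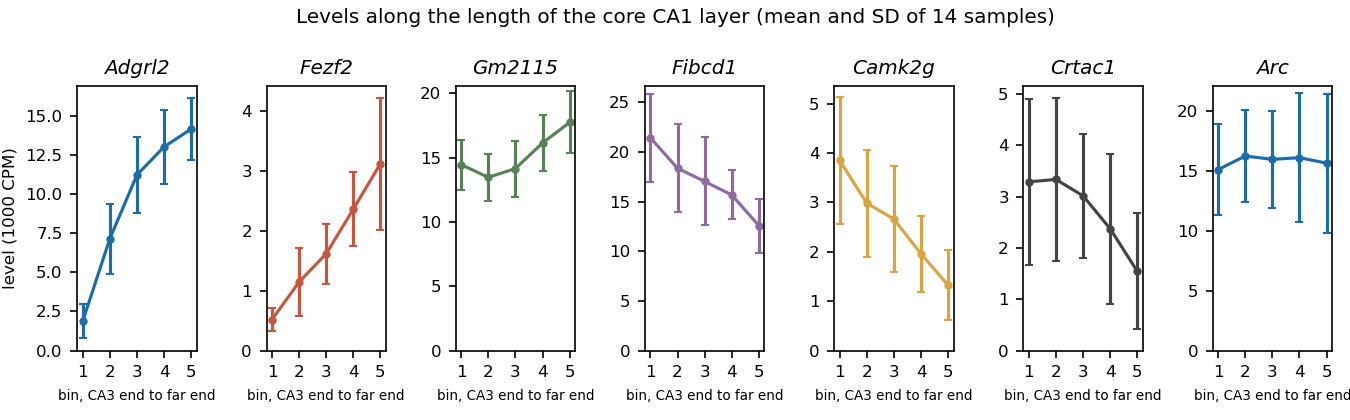
Levels in units of 1000 CPM (y axis) in 5 bins of equal cell number from the CA3 end to the far end (x axis), as mean and SD of 14 samples. Adgrl2 and Fezf2 were higher at the far end and Fibcd1 and Camk2g at the CA3 end, with a log2 difference of -0.05 for Arc.

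The question of the treatment comparisons was whether irradiation, or RZ, changed the transcripts of these cells. No gene passed in any of them, and with 2 to 5 samples in a group a difference could have been missed. With all 14 samples in 1 edgeR fit, 0 of 234 genes (0%) were called for irradiation (Ir-Veh against Ctl-Veh), for RZ after irradiation (Ir-Rz against Ir-Veh) or for RZ alone (Ctl-Rz against Ctl-Veh), and 0 for the difference between the RZ effects in irradiated and control mice. At an unadjusted p under 0.05 there were 5, 3, 4 and 1 genes, and DESeq2 called 0 in each. The fit held no term for run, and the intervals below come from it. With run as a block in edgeR, 19, 5, 13 and 5 genes had an unadjusted p under 0.05, and 0 were called. Arc stood at 19329, 9768, 25540, 16959 and 14687 CPM in the 5 Ctl-Veh samples and at 16139, 20741, 12882 and 13170 in the 4 Ir-Veh samples. It stood at 17209, 19095 and 10608 in Ctl-Rz and at 16834 and 10784 in Ir-Rz. All 4 groups overlapped, and the log2 difference of Ir-Veh from Ctl-Veh was -0.13 with a 95% interval of -0.68 to 0.42. That of Egr1 was 0.02 (-0.45 to 0.49) and that of Fos -0.07 (-0.74 to 0.60).

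In immediate early genes, RZ in unirradiated mice gave values below vehicle for 6 of 8 tested members, with a list median of -0.25 against 0.02 over all genes, and 0 were called. Members of the list correlated across cells, so they are not separate observations. Without sample Ctl-Rz 11, Arc turned to 0.068 and Egr1 to 0.074, and Arc turned to 0.042 without Ctl-Veh 8. Egr2, Fosb and Fos stayed below 0 whichever sample was left out. Egr2, a transcription factor, stood at 412 to 539 CPM in Ctl-Rz and at 554 to 1026 in Ctl-Veh. These samples did not overlap, but the difference did not pass (log2 -0.81 ± 0.31, edgeR adjusted p = 0.989, and -0.93 with an adjusted p of 0.326 with run as a block). Fosb stood at 335 to 431 CPM against 334 to 868, which overlapped (log2 -0.74 ± 0.39), and Fos gave -0.55 ± 0.36. In Ir-Veh against Ctl-Veh 5 of the 8 had values above Ctl-Veh, with a median of 0.02. In Ir-Rz against Ir-Veh it was 4 of 8, with a median of -0.03.

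Bdnf stood at 1584 and 2431 CPM in Ir-Rz against 1297, 1112, 1842 and 1050 in Ir-Veh, which overlapped (log2 0.59, 95% interval -0.13 to 1.32, edgeR adjusted p = 0.985). Its level was above that of Ir-Veh in both runs that held the pair, at 1584 against 1297 and 2431 against 1842. With run as a block the difference was 0.34 ± 0.24 (edgeR adjusted p = 0.991). The CA1 markers differed by between -0.07 and 0.11 on the log2 scale in Ir-Veh against Ctl-Veh. In Ir-Rz against Ir-Veh their differences ran from -0.30 to -0.05, with 0 of 4 above Ir-Veh. The list median was -0.25, against -0.05 over all genes tested. This direction depended on the scaling. With the number of cells as library size, all 4 were above Ir-Veh, from 0.090 for Htr1a to 0.36 for Adgrl2. In Ctl-Rz against Ctl-Veh the marker differences ran from -0.46 to 0.04 in the main fit, with 1 of 4 above Ctl-Veh. None of these marker differences was called. The smallest p-values belonged to scarce transcripts. Erbb4, a neuregulin receptor of inhibitory neurons, stood at 14.2 to 40.4 CPM in Ir-Veh against 49.5 to 154 in Ctl-Veh (log2 -1.45 ± 0.53, edgeR adjusted p = 0.994). Adarb2, an RNA-binding protein of the editing enzyme family, stood at 182 ± 51 CPM in Ir-Rz against 68.0 ± 23.4 in Ir-Veh (log2 1.42 ± 0.49, edgeR adjusted p = 0.985). Ctsc, a lysosomal protease, stood at 153 to 269 CPM in Ctl-Rz against 52.3 to 117 in Ctl-Veh (log2 1.15 ± 0.41, edgeR adjusted p = 0.989).

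**Figure D4:**
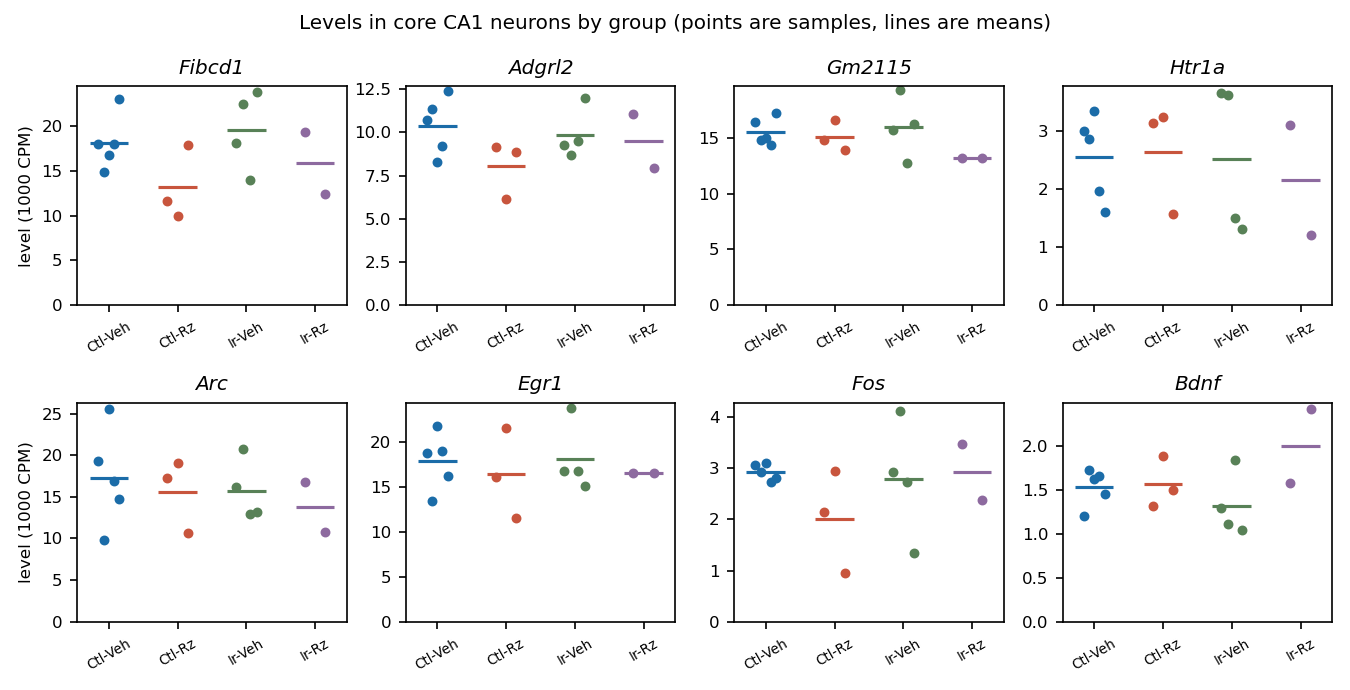
Levels in units of 1000 CPM (y axis) of the 4 markers and of Arc, Egr1, Fos and Bdnf in core CA1 neurons, by group (x axis). Points are samples and lines group means, and the groups overlapped for all 8 genes in each of the 3 comparisons.

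The same comparisons were set against those in the core dentate and core CA3 cells of the same samples. The difference between classes passed for 0 of 251 genes against the dentate and 0 of 229 against CA3 in each comparison. At an unadjusted p under 0.05 there were 8, 10 and 11 genes against the dentate and 6, 3 and 25 against CA3. For Ir-Rz against Ir-Veh, Arc differed by -0.19 in core CA1 and by -1.27 in core dentate cells (edgeR adjusted p of the difference = 0.674). The depth and length differences within the layer did not pass a test between groups either, at 0 of 207 and 0 of 172 genes in each comparison. Arc's depth difference in Ir-Rz differed from that in Ir-Veh by -0.37 ± 0.12 (edgeR adjusted p = 0.475).

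With group in the fit, 75 of 234 genes (32.1%) differed between runs. The count was 27 without sample Ir-Rz 1, and 42, 43, 37 and 48 without Ir-Veh 1, Ir-Veh 2, Ir-Veh 9 and Ir-Rz 9 in turn. Kcnh7 had run means from 987 to 6643 CPM (edgeR adjusted p = 1.13e-07), Bcan, a perineuronal matrix protein, from 2591 to 14131 (1.77e-04) and Htr1a from 1354 to 3374 (7.63e-04). All samples of runs 9, 11 and 12 lay above all samples of the other runs in Kcnh7 and below them in Htr1a. After each gene's group mean was taken off its log2 CPM, 12 of 14 samples correlated best with the other sample of their run. The partner correlations of 0.296 to 0.521 are of what was left, not of the plain levels. Taking off group means sets samples of the same group apart. Run partners were always of different groups, so the count of 12 leans toward partners. With run as a block, still 0 genes were called in each group comparison, and the smallest adjusted p fell to 0.233 for Ir-Veh against Ctl-Veh. Since depth and length were compared within samples, a run could not separate their sides.

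**Figure D5:**
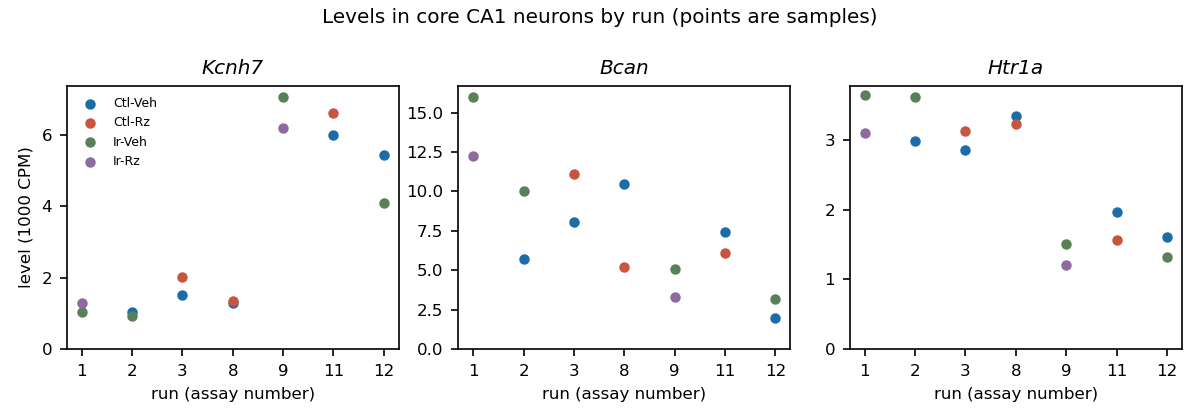
Levels in units of 1000 CPM (y axis) of Kcnh7, Bcan and Htr1a in core CA1 neurons by run (x axis), with points for samples coloured by group. Kcnh7 was highest in run 9, and Bcan was highest in run 1.

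No test of the share or the size of the cells passed between groups. With 2 to 5 samples in a group, a difference could have been missed. Core CA1 cells were 21.1% ± 5.9 (SD) of annotated cells in the 5 Ctl-Veh samples and 23.7% ± 5.3 in the 4 Ir-Veh samples, with 21.6% ± 4.4 in the 3 samples of Ctl-Rz and 21.6% ± 5.0 in the pair of Ir-Rz samples. The median volume of a cell, in the table's own unit, was 877 ± 131 in Ctl-Veh and 688 ± 180 in Ir-Veh (two-sided exact permutation p = 0.103, adjusted over 9 tests 0.600). It was lower in Ir-Veh in both runs that held the pair, with differences of -38.6 and -245. Median counts per cell were 431 ± 116 in Ctl-Veh and 344 ± 69 in Ir-Veh (exact permutation p = 0.246). They were 449 ± 25 in Ir-Rz, above all 4 Ir-Veh samples (exact permutation p = 0.133, where 0.0667 is the smallest that 2 against 4 samples allow). The layer measured 1453 ± 248 units in Ctl-Veh and 1463 ± 56 in Ir-Veh, and held 15.8 ± 3.3 and 15.7 ± 4.8 cells per 100 units of length. None of the 9 tests of length, cells per length and width had an adjusted p under 0.8.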

How the data were processed

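The authors deposited raw counts of transcripts per segmented cell for 255 genes from Abi3 to Kcnj8 in alphabetical order, and genes later in the alphabet were not analysed here. Per the labels, sections were imaged by MERFISH; how cells were filtered and classes assigned is not given in the sources used here. Of the symbols, 254 matched RefSeq. The cell table deposited by the authors gives volume and position, entered as signal values and other numbers with no stated unit or method. Unused per-sample columns numbered 0.

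Counts were summed per sample over core CA1 cells (46243 to 200758 counts). Tests used edgeR 4.0.16 (quasi-likelihood, TMM, filterByExpr) with limma 3.58.1 and DESeq2 1.42.0 as alternatives in R 4.3.3, and Benjamini-Hochberg adjusted p-values at 0.05. Ratios of levels between classes are log2 ratios of CPM computed from the deposited counts. Medians and shares were compared by exact permutation in Python 3.11.15. Positions used a curve of degree 4 per sample, and the position comparisons were chosen after seeing the data. Same-numbered samples shared an assay number, and each pair's correlation after group means were taken off was over 0.1. Run numbers were used to pair the samples on these grounds, although taking off group means favours such pairs.

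The edgeR tests of groups, runs, classes, depth and length and the exact permutation test were tested on simulated data. The group tests and the permutation test were simulated only with changes larger than the group differences named here. Their power to find smaller changes was not measured. The depth test with nothing changed behaved as intended. With 25 genes changed and Poisson noise, the depth test made false calls beyond its threshold, nearly all small. The stricter rule was added for that reason. A version of it without the scaling by number of cells met the threshold in the same simulation of depth. The full rule was not simulated, and neither version was simulated along the length.

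Members and lists were chosen with earlier results of these data known. Named were the markers, Bdnf, Arc, Egr1 and Fos, the genes highest in level or in ratio to other cells at 0.2 or more counts per cell, up to 10 called genes per direction or the 10 smallest p-values of a comparison, and up to 4 members and any called gene of each list. Calb1 was named after its value was seen. A few genes are not reported here.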

Additional observations from a re-analysis of the deposited data

Results flagged for a closer look

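The median count per core CA1 cell in sample Ctl-Veh 8 was 635, against 353 to 406 in the other 4 Ctl-Veh samples. The gap to the nearest of these was larger than the spread of 5 samples usually gives. Of 28 groups of values examined in this way, this 1 stood out, and chance gives about 1 in 20.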

How the results depend on the processing

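Apart from Hpca, which was not followed through the alternatives, the depth and length calls named in the report kept their direction under every alternative run. Values of Egr2, Fosl2, Arc and Gja1 that had not passed on the axis given turned sign as listed. Of 60 depth calls, 49 passed under TMM, library size alone and number of cells, and 39 of these differed by 0.2 or more on the log2 scale; along the length these counts were 33, 27 and 25. Library size alone moved the median gene by 0.03 towards the inner side and by 0.03 towards the far end, and the number of cells by 0.05 and 0.11. The 0 calls of the 3 group comparisons and their interaction held under every alternative. Run differences fell from 75 genes to between 27 and 48 without Ir-Rz 1, Ir-Rz 9, Ir-Veh 1, Ir-Veh 2 or Ir-Veh 9, and the comparison with core CA3 for RZ in irradiated mice reached 1 gene without Ctl-Rz 3 or Ir-Rz 9. The median volume under irradiation reached an exact p of 0.0357 without Ir-Veh 2, a difference of -276. Adgrl2 and Bdnf, which passed across the depth without meeting the stricter rule, lost the call in 8 and 13 alternatives. Aldh1l1 lost its depth call in 15 alternatives and Gja1 in 2. Along the length, Egr2 gained a call in 3 alternatives and Fosb in 4, and App and Gria1 lost it in 1 each. With run as a replicate block, 19, 5 and 13 genes had an unadjusted p under 0.05 for irradiation, RZ after irradiation and RZ alone, and none was called. All reversals below are of values that had not passed, and the cause was not tested. With no filter on low genes, the sign turned for Gm2115 under irradiation (vehicle) (-0.000774), Egr1 under irradiation (vehicle) (-0.012), Htr1a under RZ (unirradiated) (-0.065), Bdnf under RZ (unirradiated) (-0.074) and Fosl2 along the length (0.050). With number of cells as library size, the sign turned for Fibcd1 under irradiation (vehicle) (-0.13), Gm2115 under irradiation (vehicle) (-0.16), Egr1 under irradiation (vehicle) (-0.19), Fibcd1 under RZ (irradiated) (0.14), Adgrl2 under RZ (irradiated) (0.36), Gm2115 under RZ (irradiated) (0.15), Htr1a under RZ (irradiated) (0.090), Arc under RZ (irradiated) (0.19), Egr1 under RZ (irradiated) (0.27), Gm2115 under RZ (unirradiated) (0.14), Egr1 under RZ (unirradiated) (0.018), Egr2 across the depth (0.0097), Arc along the length (0.058) and Fosl2 along the length (0.12). With all Leiden 1 cells, the sign turned for Fos under irradiation (vehicle) (0.0086) and Fos under RZ (irradiated) (-0.077). With run as a replicate block, the sign turned for Htr1a under irradiation (vehicle) (0.021), Adgrl2 under RZ (irradiated) (0.0019), Gm2115 under RZ (unirradiated) (0.035), Htr1a under RZ (unirradiated) (-0.075) and Bdnf under RZ (unirradiated) (-0.10). Without run 9, the sign turned for Htr1a under irradiation (vehicle) (0.20), Arc under irradiation (vehicle) (0.0019), Adgrl2 under RZ (irradiated) (0.081) and Htr1a under RZ (irradiated) (0.046). With library size alone, the sign turned for Adgrl2 under RZ (irradiated) (0.018), Gm2115 under RZ (unirradiated) (0.064) and Fosl2 along the length (0.045). With deposited totals as library size, the sign turned for Adgrl2 under RZ (irradiated) (0.019) and Gm2115 under RZ (unirradiated) (0.058). With the replicate block as a random effect, the sign turned for Adgrl2 under RZ (irradiated) (0.010), Gm2115 under RZ (unirradiated) (0.012), Htr1a under RZ (unirradiated) (-0.054) and Bdnf under RZ (unirradiated) (-0.077). With genes with 0.2 or more counts per cell, the sign turned for Gm2115 under RZ (unirradiated) (0.030). With cells with 100 or more counts, the sign turned for Egr2 across the depth (0.029) and Fosl2 along the length (0.025). With the sides set within each stretch of the length, the sign turned for Egr2 across the depth (0.032). With share of CA1_ExN cells, the sign turned for share of annotated cells that are core CA1 under RZ (irradiated) (1.24). With the replicate block, comparing within runs, the sign turned for share of annotated cells that are core CA1 under RZ (irradiated) (0.094), median counts per core CA1 cell under RZ (unirradiated) (-32.3), cells per 100 units of layer length under irradiation (vehicle) (1.77) and cells per 100 units of layer length under RZ (irradiated) (0.85). With all CA1_ExN cells, the sign turned for median volume of core CA1 cells under RZ (irradiated) (-0.38). Leaving out 1 sample at a time gave Htr1a under irradiation (vehicle) from -0.25 to 0.19, Egr1 under irradiation (vehicle) from -0.13 to 0.11, Arc under irradiation (vehicle) from -0.29 to 0.051 and Adgrl2 under irradiation (vehicle) from -0.18 to 0.017. Such ranges ran for Gm2115 under irradiation (vehicle) from -0.059 to 0.14, Fos under irradiation (vehicle) from -0.32 to 0.16, Htr1a under RZ (irradiated) from -1.06 to 0.26 and Egr1 under RZ (irradiated) from -0.21 to 0.030. The ranges were, for Adgrl2 under RZ (irradiated) from -0.33 to 0.13, Fos under RZ (irradiated) from -0.23 to 0.33, Arc under RZ (irradiated) from -0.55 to 0.061 and Bdnf under RZ (unirradiated) from -0.14 to 0.16. Such ranges ran for Arc under RZ (unirradiated) from -0.32 to 0.068, Htr1a under RZ (unirradiated) from -0.13 to 0.31, Flt1 under RZ (unirradiated) from -0.10 to 1.37 and Gm2115 under RZ (unirradiated) from -0.13 to 0.0086. The ranges were, for Egr1 under RZ (unirradiated) from -0.37 to 0.074, core CA1 genes differing between runs from 27 to 88, genes whose difference differs between core CA1 and core CA3 under RZ (irradiated) from 0 to 1 and Egr2 across the depth from -0.088 to 0.072. Such ranges ran for Fosl2 along the length from -0.015 to 0.15, Arc along the length from -0.066 to 0.027, Gja1 along the length from -0.033 to 0.26 and share of annotated cells that are core CA1 under RZ (irradiated) from -5.65 to 1.45. The ranges were, for share of annotated cells that are core CA1 under RZ (unirradiated) from -1.96 to 2.94, median counts per core CA1 cell under RZ (unirradiated) from -13.7 to 56.8, median volume of core CA1 cells under irradiation (vehicle) from -276 to -139 and median volume of core CA1 cells under RZ (irradiated) from -81.8 to 130. Such ranges ran for median volume of core CA1 cells under RZ (unirradiated) from -171 to 8.62, length of the core CA1 layer under irradiation (vehicle) from -44.8 to 103, length of the core CA1 layer under RZ (irradiated) from -273 to 140 and cells per 100 units of layer length under irradiation (vehicle) from -1.50 to 1.84. The ranges were, for cells per 100 units of layer length under RZ (irradiated) from -6.97 to 0.63.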
